A study of Mus musculus with 8 samples.

Results

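The proteasome subunit genes were examined in single mouse blastocysts. Members were all autosomal genes in the deposited counts whose symbol begins with Psma, Psmb, Psmc, Psmd, Psme, Psmf or Psmg followed by a number, which gave 47 of 22810 genes. X-linked Psmd10 was left out. The blastocysts were taken at embryonic day 3.5 from natural matings, without culture in vitro, and each was lysed and sequenced alone by SMART-Seq2, a method that amplifies full-length cDNA from little RNA. The forward cross had a C57BL/6 (B6) mother and a Mus musculus castaneus (cast) father and gave 3 embryos, numbered 1, 2 and 3. The reverse cross had a cast mother and a B6 father and gave 5, numbered 1, 2, 3, 5 and 7. All embryos are F1 hybrids with 1 B6 and 1 cast copy of each autosome, were untreated and carry no engineered allele. The labels give neither litter nor sex. Each embryo is a separate animal but also a mixture of cell types, so fewer cells of a type and less RNA per cell cannot be told apart. The counts are of reads that cover a SNP between both strains, so that each read belongs to the maternal or the paternal allele. Read numbers of different genes cannot be set against each other, since they depend on SNP number and transcript length.

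The proteasome degrades proteins that carry ubiquitin chains. Its core particle is a barrel of alpha subunit rings, which guard the entrance, around beta subunit rings, of which Psmb5, Psmb6 and Psmb7 carry the proteolytic sites. A regulatory particle of ATPases (Psmc genes) and non-ATPase subunits (most Psmd genes) binds, unfolds and feeds in the substrate, other activators (Psme genes) can take its place, and dedicated chaperones (Psmg genes, Psmd5 and Psmd9) assist assembly. In immune cells and after interferon, Psmb8, Psmb9 and Psmb10 replace the constitutive catalytic subunits and alter the peptides made for MHC class I. The early embryo relies on the proteasome to clear maternal proteins.

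The embryos had 1060063 to 1632695 SNP-spanning reads each, of which 57.4% to 58.3% came from B6 alleles. Over 5607 genes, reverse embryo 1 correlated with the other embryos with Spearman's rho of 0.40 to 0.60, against 0.80 to 0.92 among the others, and it stands apart before any grouping. All 11 blastocyst markers (trophectoderm, epiblast and primitive endoderm genes) were read. Their sum was 1545 RPM (reads per 1000000 SNP-spanning reads of the embryo) in reverse embryo 1 and 4034 to 5213 in the others. The keratin genes Krt8 and Krt18 made this sum low, with 492 RPM against 3072 to 4243, and the 9 other markers summed to 1052 RPM there against 680 to 1216. The sum of 8 leukocyte markers was 869 RPM in forward embryo 1 and 3.32 to 56.4 in the others. Lyz2, a macrophage gene, had 1055 of its 1149 reads in forward embryo 1, all of them maternal. Of 5 cumulus and 5 red blood cell markers, 2 and 1 had any reads, and 5 of 6 oocyte markers had reads, with sums of at most 11.3, 0.94 and 16.7 RPM. The 5 oviduct and uterine epithelium markers summed to 624 to 1170 RPM, nearly all from Epcam, which trophectoderm also expresses (9377 reads).

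The members received 168052 reads. They lie on 15 chromosomes, 8 of them on chromosome 11 and 6 on chromosome 14. Psmb8 and Psmb9 are separated by 9956 bases, Psme1 and Psme2 by 5911 and Psmb5 and Psmb11 by 3410. Of the 47 members, 42 had 10 or more reads in 1 or more of 16 allele libraries (a maternal and a paternal one per embryo) and were tested. The 5 others were Psmb8 with 13 reads in all, Psmb10 with 54, Psmb11 (the thymus form) with 3, and the lid subunit genes Psmd6 with 67 and Psmd11 with 9. Psme2b, a gene copy of Psme2, was not among the genes analysed here.

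The first question was whether the parental alleles were read unequally. None of the 42 tested members passed the test of maternal against paternal alleles (edgeR's quasi-likelihood test with strain as a term, adjusted p of at least 0.257), and 1.42% of all 12564 tested autosomal genes did. This fit treated the alleles of an embryo as independent libraries. Paired by a term for each embryo, only Psmb9 passed (adjusted p = 0.0227, edgeR), and 3.1% of all tested genes did. Unless stated, allele results below are from the unpaired fit. At an unadjusted p under 0.05 there was 1 member, Psmb9, and 7.31% of all tested genes. Apart from Psmb9, fitted paternal over maternal differences lay between -0.40 and 0.90 on the log2 scale. For equal reading, one-sided tests were made from both sides against a log2 difference of 1, and 31 of 42 members (73.8%) passed at an adjusted p of at most 0.1, against 35.4% of all tested genes. Passing also depends on the number of reads, and these shares were not matched for it. Without forward embryo 1, 2 or 3 the number of members fell to 15, 16 and 9, and against a 1.5-fold margin it was 0. The share of all tested genes under these settings was not set beside these numbers, so whether other genes fell alike is not shown.

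By class, 7 of 7 constitutive beta genes, 6 of 8 alpha genes, 4 of 6 ATPases, 8 of 9 tested non-ATPases, 5 of 6 assembly chaperones and 1 of 5 activator and inhibitor genes passed as equivalent. Of these, Psmb3, Psma4 and Psmd2 had 97.9%, 97.6% and 94.0% of their reads from B6. Their result mainly compares B6 reads between the crosses and does not show balanced alleles within an embryo. The members that passed had fitted parental differences of -0.25 to 0.31 log2. The 11 that did not pass, Psma5, Psma8, Psmb9, Psmc2, Psmc6, Psmd4, Psme2, Psme3, Psme4, Psmf1 and Psmg1, had 36 to 1738 reads each over the 8 embryos. In this fit neither a difference nor equality was shown for these genes, Psmb9 being the case treated next. With alleles paired by a term for each embryo, Psmc6, Psme4, Psmg1, Psma5 and Psmf1 also passed as equivalent (adjusted p of 0.000161 to 0.0449, edgeR).

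**Figure D1:**
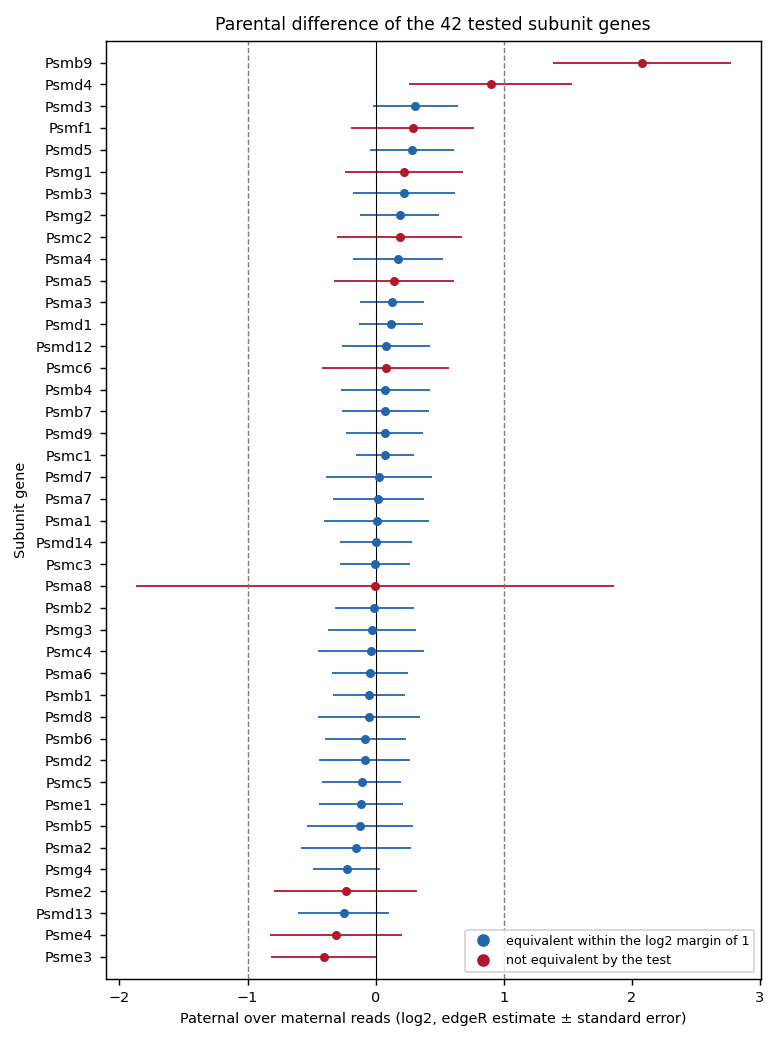
Fitted paternal over maternal log2 difference of each of the 42 tested members on the x axis, with its standard error as a bar (16 allele libraries of 8 embryos). The fit did not pair the alleles of an embryo. Blue genes passed the equivalence test against the dashed lines at -1 and 1, red genes did not, and Psmb9 at 2.08 lies apart from the other members, which range from -0.40 to 0.90.

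Psma7, an alpha ring gene and the alpha gene with the most reads, shows the balanced state of most members. Its maternal reads were 1848, 1088 and 1893 in forward embryos 1, 2 and 3. In reverse embryos 1, 2, 3, 5 and 7 they were 458, 1388, 2457, 1507 and 1107. Its paternal reads, in the same order, were 1782, 1186 and 2062 and then 499, 1448, 2367, 1524 and 1078. Its paternal share thus stayed between 49.1% and 52.2% in every embryo. The most-read constitutive beta gene, Psmb6 (caspase-like site), had paternal shares of 44.0% to 46.1% in the forward and 49.5% to 56.2% in the reverse cross. Psmc4, the most-read ATPase gene, had 42.9% to 47.8% and 49.2% to 61.4%, and Psmd7, a lid subunit and the most-read non-ATPase gene, had 50.6% to 54.7% and 43.0% to 62.1%. Psmg2, the most-read assembly chaperone, had 46.4% to 53.7% and 52.4% to 69.1%, and Psme1, a subunit of the interferon-inducible activator, 35.6% to 45.8% and 50% to 64.0%.

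Over the tested members that showed no strain difference, 235 of 263 shares with at least 20 reads in the embryo (89.4%) lay between 30% and 70% paternal, against 79.2% for all tested genes without one. In genes with at least 100 reads in every embryo these shares were 97.2% (140 of 144) for members and 94.8% for all. In the forward cross the members had a median paternal share of 46.0% ± 1.28 (SD, n = 3), and in the reverse cross one of 54.9% ± 1.30 (SD, n = 5). All tested genes had 44.1% ± 0.509 and 56.4% ± 0.998. The tilt follows B6, which is paternal in the reverse cross, and TMM scaling of the allele libraries turned it to 51.6% and 48.6% for the members. The paternal shares of the crosses did not overlap for 19 of 42 members, against 33% of all tested genes.

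Psmb9 encodes the inducible counterpart of Psmb6 and lies in the MHC region (mm10 chr17:34181987-34187764, minus strand), where it overlaps Tap1. Its maternal reads were 10, 0 and 1 in the forward embryos and 0, 24, 17, 3 and 14 in the reverse embryos, in the order of their numbers. Its paternal reads were 26, 26 and 36 and then 24, 60, 40, 22 and 4. The paternal allele was ahead in 7 of 8 embryos, in both crosses, and reverse embryo 7 went the other way. Paternal reads made up 89.8% ± 15.3 (SD, n = 3) of the forward and 70.4% ± 29.6 (SD, n = 5) of the reverse total per embryo. The fitted difference was 2.08 log2 (standard error 0.69), which did not pass the test (adjusted p = 0.257, edgeR). When its alleles were paired by an embryo term, the difference was 2.42 and passed (adjusted p = 0.0227, edgeR), as 3.1% of all tested genes did. It also passed with DESeq2 (adjusted p = 0.0669), with edgeR's newer dispersion method (0.0880) and without a filter on low counts (0.00577). For these fits the share of all tested genes was not set beside the call. Over all alternatives the adjusted p ranged from 0.00577 to 0.792. Tap1, an MHC class I peptide transporter on the opposite strand, had 29 reads in all, 22 of them paternal, and the sources used here do not say if counting was by strand. Of 7 tested neighbours within 100 kb, 1 differed between parental alleles, the leukocyte marker H2-Aa, which was maternal (83 maternal reads and 1 paternal, 66 of them in forward embryo 1).

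Psmb8, the inducible counterpart of Psmb5, had only maternal reads, 6 in forward embryo 1, 5 in reverse embryo 1, 2 in reverse embryo 2 and 0 in the 5 other embryos. The 0 paternal reads allow up to 23.1% of the maternal number by counting error alone. Forward embryo 1 is the embryo with the leukocyte marker reads (869 RPM), and reverse embryo 1 had 3.32. The part of these markers in the Psmb8 reads was not tested. Psmb10, the inducible counterpart of Psmb7, had 24 maternal and 30 paternal reads, too few in any library for the test. The 3 reads of Psmb11 were all maternal, in reverse embryos 2 and 3.

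**Figure D2:**
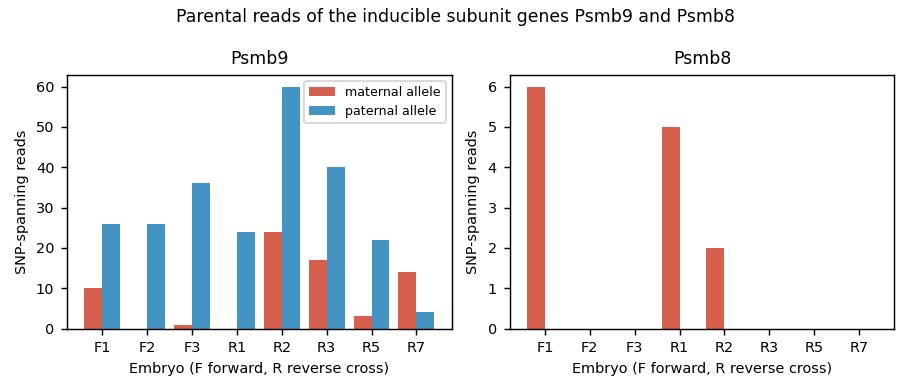
SNP-spanning reads of the maternal (red) and paternal (blue) allele of Psmb9 and Psmb8 in each embryo, with F for forward and R for reverse. Psmb9 had more paternal reads in 7 of 8 embryos and fewer in R7, while the 13 reads of Psmb8 lay in F1, R1 and R2 and were all maternal.

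Among the other members with the largest fitted parental differences, Psmd4, a ubiquitin receptor of the regulatory particle, had 38 maternal and 73 paternal reads. Its paternal reads exceeded the maternal ones in 5 of 8 embryos (log2 difference 0.90, standard error 0.63), and it did not pass the test. Psmd3, a lid subunit, was at 0.31 and passed as equivalent. Psme3, the nuclear activator, was at -0.40 and Psme4, an activator linked to histone degradation, at -0.31, and neither passed either test.

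The second question was whether the B6 and cast alleles were read unequally, whichever parent they came from. Of the 42 members, 7 differed (edgeR, adjusted p of at most 0.1), and 15.4% of all tested genes did. The B6 allele was higher at Psmb3, Psma4, Psma8, Psmd2, Psma5 and Psma3, and the cast allele at Psmg4. These 6 and 1 of 42 members stand against 10.9% of all tested genes toward B6 and 4.47% toward cast. Psma8 passed the read minimum only through a B6 library, which favours a call toward B6, and 5 of 41 were higher from B6 without it. With 1 library size per embryo in place of TMM factors, the calls were 8 toward B6 and 0 toward cast. That scaling moved the median of all genes from 0.06 to 0.40 log2 toward B6 and the B6 part of all calls from 70.9% to 87.4%. With a term for each embryo, 16 members differed, 7 toward B6 and 9 toward cast, and 25.5% of all tested genes did.

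Psmb3, a beta ring gene without a catalytic site (chr11:97703399-97713500, plus strand), was read almost only from B6. Its B6 reads were 269, 224 and 348 in the forward embryos and 93, 335, 675, 427 and 236 in the reverse embryos, and its cast reads were 8, 6 and 7 and then 11, 2, 11, 8 and 3. No embryo had less than 89.4% B6, and the difference was 5.17 log2 (standard error 0.44, adjusted p = 9.22e-09, edgeR). Psma4, an alpha ring gene (chr9:54950790-54958030, plus strand), had 221, 145 and 207 B6 reads in the forward and 53, 220, 318, 197 and 148 in the reverse embryos. Its cast reads were 6, 4 and 7 and then 8, 4, 3, 2 and 3. The B6 allele was far ahead in all 8 embryos (4.99 log2, standard error 0.39, adjusted p = 2.16e-09, edgeR).

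Psmd2, a scaffold subunit of the base of the regulatory particle (chr16:20651652-20663414, plus strand), had 59, 66 and 67 B6 reads in the forward and 49, 91, 64, 97 and 56 in the reverse embryos. Its cast reads were 4, 4 and 3 and then 2, 7, 3, 3 and 9. The B6 share was 93.9% ± 3.41 (SD, n = 8) and the difference 3.61 log2 (standard error 0.38, adjusted p = 3.26e-07, edgeR).

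Psma5, an alpha ring gene (chr3:108256926-108279974, plus strand), had 103, 36 and 87 B6 reads and 14, 4 and 17 cast reads in the forward embryos. In the reverse embryos it had 27, 54, 166, 88 and 81 B6 and 30, 4, 2, 11 and 12 cast reads. Only reverse embryo 1 had more cast than B6 reads, with 47.4% B6, and the 7 others had 83.7% to 98.8%. The difference was 2.45 log2 (standard error 0.48, adjusted p = 0.00102, edgeR). Reverse embryo 1 also had the lowest B6 share of Psmb3 (89.4%) and Psma4 (86.9%), but not of Psmd2 or Psma3.

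Psma3, an alpha ring gene, was read to 70.8% ± 5.13 (SD, n = 8) from B6, with 64.9% to 77.8% in single embryos (0.91 log2, standard error 0.25, adjusted p = 0.0174, edgeR). Its gene overlaps 3110056K07Rik on the opposite strand, which also differed toward B6. Psma4 overlaps AY074887 and Psma5 overlaps 1700010K24Rik, both on the opposite strand. Psma8, the alpha subunit of the meiotic testis proteasome, had 36 B6 and 0 cast reads, so that B6 was at least 12-fold higher (3 reads taken as the limit of a count of 0). The reads were 0, 9 and 2 in the forward embryos and 20, 3, 0, 2 and 0 in the reverse embryos, and the gene entered the test only through reverse embryo 1. Its call (adjusted p = 0.0438, edgeR) was lost without forward embryo 2 (adjusted p = 0.209).

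Psmg4, an assembly chaperone (chr13:34162964-34178173, plus strand), was the member read more from cast. Its B6 reads were 185, 129 and 138 in the forward and 131, 130, 145, 71 and 43 in the reverse embryos, and its cast reads were 259, 112 and 216 and then 142, 183, 253, 158 and 125. Cast was ahead in 7 of 8 embryos, forward embryo 2 being the exception (-0.91 log2, standard error 0.26, adjusted p = 0.0252, edgeR). The call was lost with 1 library size per embryo (adjusted p = 0.132) and without forward embryo 1 (0.102) or 3 (0.124). The 35 members without a call lay between -1.14 and 0.97 log2. Psmb5, the chymotrypsin-like catalytic gene, was at their upper end, with 70.2% ± 3.25 (SD, n = 8) B6 in a range of 64.8% to 74.9%, but an adjusted p of 0.151 in edgeR. With a term for each embryo Psmb5 differed at an adjusted p of 1.08e-07 (edgeR). Psmb7, the trypsin-like catalytic gene, was at 0.07 and Psmb6 at -0.14 log2.

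**Figure D3:**
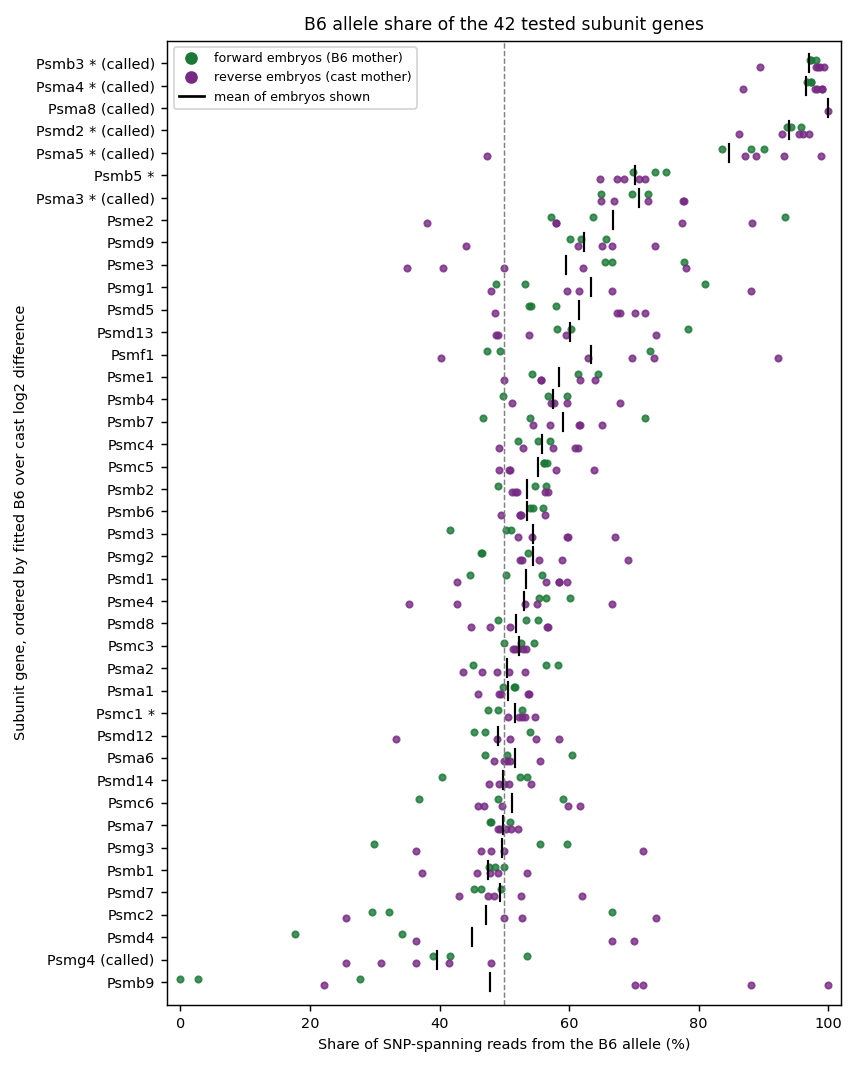
Share of reads from the B6 allele in percent for the 42 tested members, with 1 point per embryo that had at least 10 reads of the gene, green for forward and purple for reverse, and a black bar for their mean. Genes are ordered by the fitted strain difference, "called" marks the 7 genes that passed and the asterisk the 7 tested genes with a near-identical pseudogene. Psmb3, Psma4, Psmd2 and Psma5 lie near the right edge in both crosses, apart from 1 purple point of Psma5 at 47.4%.

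Members with processed pseudogenes were unequally spread over these calls. A pseudogene at least 95% identical to the transcript over at least 200 bases (GENCODE M21, BLAST+) was found for 7 of the 42 tested members, Psma3, Psma4, Psma5, Psmb3, Psmb5, Psmc1 and Psmd2. Of the 6 members higher from B6, 5 had such a copy, all but Psma8, and of the 35 without a strain call 2 had one. With a term for each embryo these 2 were called as well, Psmb5 toward B6 and Psmc1 toward cast. Among all tested genes with a protein-coding transcript, 22.8% of those higher from B6 and 6.8% of those without a strain call had a copy. Split by copy, 27.5% of these genes with a copy and 8.41% of those without one were higher from B6. For the members these were 71.4% (5 of 7) and 2.86% (1 of 35). The genome that the reads were aligned to is that of B6, and reads mapping to several places were left out. The part of the copies in the strain differences was not tested. The 2 strain calls at members without a copy were Psma8 and Psmg4, a count from the same split and not from a new fit.

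The following coding stretches of 60 bases show how close a gene and its copy are. Each is the first stretch without a gap that holds a difference away from its ends. Whether these stretches hold SNPs that were counted was not looked at. Capitals mark the bases that differ, and positions count from the first base of the start codon. The Psmb3 stretch (coding bases 26 to 85) has 2 differences from the pseudogene at chr16:21896506-21897116 (plus strand), and the Psmd2 stretch (3 to 62) has 3 from Gm5422 at chr10:31248023-31251043 (plus strand).
Psmb3: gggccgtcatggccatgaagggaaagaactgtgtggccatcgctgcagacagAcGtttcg
Psmb3 copy: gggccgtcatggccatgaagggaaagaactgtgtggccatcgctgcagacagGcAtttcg
Psmd2: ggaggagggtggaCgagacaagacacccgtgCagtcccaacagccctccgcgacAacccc
Psmd2 copy: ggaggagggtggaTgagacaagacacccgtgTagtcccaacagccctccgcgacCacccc

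The first 60 coding bases of Psma5 have 1 difference from Gm8394 at chr10:85313488-85314439 (plus strand), and those of Psma3 have 1 from Gm4742 at chr14:52368918-52369688 (minus strand). Over the whole alignment the printed copies of Psma5 and Psma3 were 98.6% and 96.5% identical, those of Psmb3 and Psmd2 97.1% and 96.4%. Psma3, Psma5 and Psmb3 had other copies too, and the Psma3 copy Gm13835 was 100% identical over 665 bases. The copy of Psma4, Gm6542 (96.8% over 783 bases), is not printed. All stretches were read from the GENCODE M21 transcripts.
Psma5: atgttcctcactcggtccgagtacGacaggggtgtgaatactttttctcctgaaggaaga
Psma5 copy: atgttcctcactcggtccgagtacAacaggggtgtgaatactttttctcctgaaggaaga
Psma3: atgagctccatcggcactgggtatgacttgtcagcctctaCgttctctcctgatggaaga
Psma3 copy: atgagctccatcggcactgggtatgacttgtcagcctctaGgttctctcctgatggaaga

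The third question was whether the level of both alleles together differed between the crosses. No member passed the test (edgeR, adjusted p of at least 0.578), and DESeq2 also called 0, with 0.103% of all tested genes called by edgeR. At an unadjusted p under 0.05 there was 1 member of 42, against 7.4% of all tested genes. This was the assembly chaperone gene Psmg1, with 28.8, 18.2 and 29.0 RPM in the forward and 49.8, 40.7, 66.1, 37.5 and 48.1 in the reverse embryos. All 5 reverse embryos were above the 3 forward ones (0.97 log2, standard error 0.39, adjusted p = 0.578, edgeR). Fitted differences of the members ranged from -1.16 for Psmd4 to 0.97 for Psmg1. Psma2, an alpha ring gene, was at 0.84 (standard error 0.46) and Psmc6, an ATPase gene, at 0.81 (standard error 0.54). The summed reads of all members were 15692 ± 3577 (SD, n = 3) RPM for the forward cross, 15014 ± 5498 (SD, n = 5) for the reverse cross, with overlapping ranges, and 17012 ± 3700 (SD, n = 4) for the reverse cross when its embryo 1 was left out.

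The member sums of single embryos lay further apart than the means of the crosses. In reverse embryo 1 the members summed to 7023 RPM, and the 7 others had 13370 to 22178, with a median of 14659. It was the lowest of the 8 embryos for 28 of 42 tested members, against 23.6% of all tested genes, and the highest for 5, against 33.9%. These shares also depend on the number of reads and on the read minimum, and they were not matched for either. Its summed reads were 0.41 of the median of the others for the alpha ring, 0.46 for the beta ring, 0.41 for the ATPases, 0.39 for the non-ATPases and 0.75 for the assembly chaperones. Those of the activators and inhibitor were 1.28 of it, but this rested on Psme4, and without Psme4 the other 4 genes had 83.05 RPM against 201 to 323 in the other embryos, 0.32 of the median. As given above, Krt8 and Krt18 were also low there (Krt8 had 303 RPM against 1552 to 2352). Of the 9 other blastocyst markers, 3 were above and 2 were below all other embryos, Tead4 for example having 387 against 191 to 300. The part of the cell makeup of this embryo in its proteasome reads was not tested.

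The members furthest below the others in reverse embryo 1 were Psmd7 with 149 RPM against 707 to 1677, Psmb5 with 94.3 against 424 to 821, Psmf1, the inhibitor PI31, with 8.64 against 44.3 to 88.1, and Psmc4 with 134 against 562 to 1154. Psmb6 had 619 against 1354 to 2307 and Psma7 636 against 1774 to 3219. Each was below all 7 other embryos. The 5 that were highest there were Psma3, Psma8, Psmb7, Psmc2 and Psme4. Psma8 passed the read minimum only through this embryo, so its place was fixed by the filter, and 4 of 41 were highest without it.

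Psme4 stood out among these. Its RPM were 81.5, 48.6 and 66.5 in the forward embryos and 327, 44.4, 41.4, 104 and 62.3 in the reverse embryos. The value of reverse embryo 1 came from 492 reads, 282 of them from the maternal cast allele and 210 from the paternal B6 allele. Without this embryo the fitted difference between the crosses, 0.74 log2 with it, was -0.015. Psmb7 had 111 RPM there against 32.5 to 58.2 in the others, and Psma3 had 144 against 62.5 to 106. The catalytic genes thus differed in direction in this embryo, Psmb5 and Psmb6 being below and Psmb7 above all the others. The Psmb7 value came from 167 reads. On the opposite strand Psmb7 overlaps Nek6 and the pseudogene Gm13586, and Psme4 overlaps the pseudogene Gm12103. The part of these overlapping genes in the reads was not tested.

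**Figure D4:**
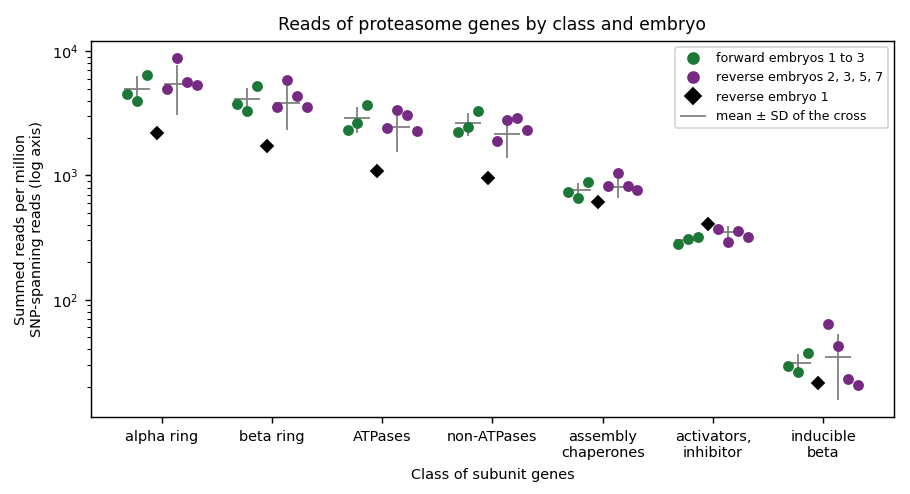
Summed RPM for each class of subunit genes (log axis), with 1 point per embryo and the mean ± SD of each cross in grey. Reverse embryo 1 (black diamonds) lies below the other embryos for the alpha and beta rings, ATPases, non-ATPases and chaperones, and above them for the activators and inhibitor, where Psme4 alone had 327 RPM and the other 4 genes 83.05.

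**Figure D5:**
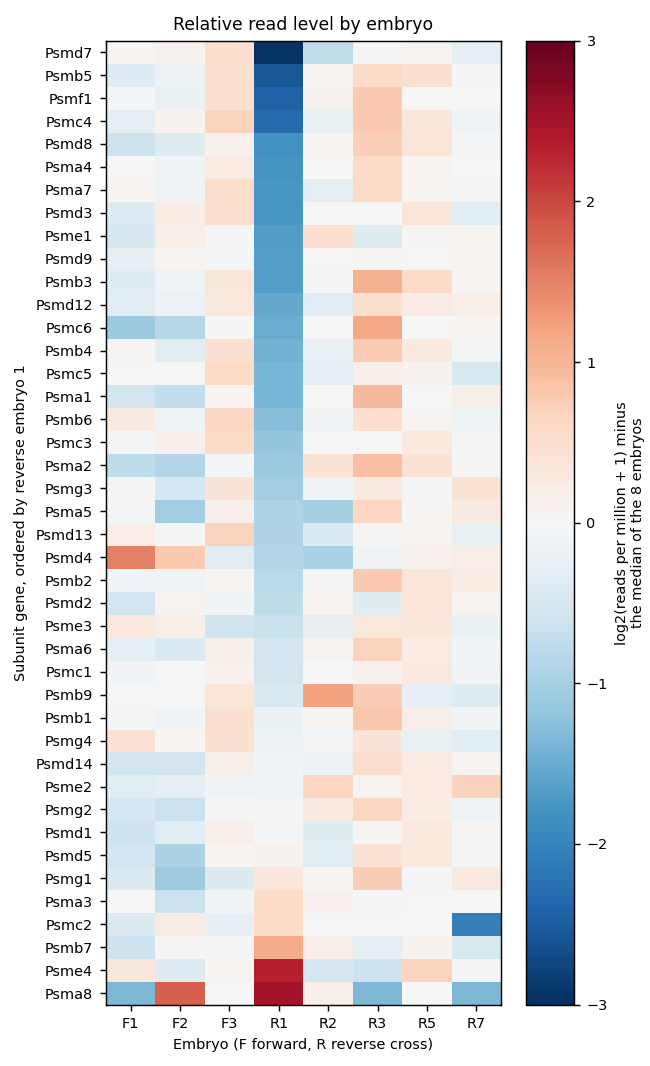
RPM of the 42 tested members in each embryo as log2(value + 1) minus the median of the 8 embryos, with colours capped at 3 in either direction, ordered by reverse embryo 1. The column R1 is blue for most genes, from Psmd7 at the top, and red for Psmb7, Psme4 and Psma8 at the bottom.

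Of the activator genes, Psme1 had 116, 181 and 157 RPM in the forward and 49.8, 230, 125, 164 and 168 in the reverse embryos. Its partner Psme2 had 9.19 to 10.96 in the forward and 11.3 to 19.8 in the reverse embryos, and Psme3 had 14.1 to 27.6 and 13.3 to 27.8. The ranges of Psme2 did not overlap between the crosses, but the difference did not pass the test (0.65 log2, standard error 0.50, adjusted p = 0.773, edgeR).

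Promoters of the members were searched for motifs of factors known from proteasome, interferon or housekeeping genes. The window from 250 bases before to 50 after the start (RefSeq, GRCm38.p6) was found for 39 of 47 members and 9579 tested genes. The core of the antioxidant response element, which the factors Nfe2l1 and Nfe2l2 use to raise proteasome genes, was searched as TGACNNNGC on both strands. It was in the window of 6 members (15.4%) and of 17.2% of tested genes. The ETS core CCGGAAG was in 14 members (35.9%) and 19.3% of tested genes, CCAAT in 33.3% and 42.1%, the gamma-activated sequence TTCNNNGAA in 7.69% and 8.58%, and TATAAA in 10.3% and 9.15%. A match describes letters only and is not a site of binding. The 4 windows in which the antioxidant element core lay within 50 bases before the start are printed with the match in capitals, on the strand of the gene, since 2 of them belong to the catalytic genes Psmb5 (chr14:54618023-54618052, minus strand) and Psmb6 (chr11:70525338-70525367, plus strand). The others belong to Psmd9 (chr5:123228149-123228178, plus strand) and Psme4 (chr11:30771758-30771787, plus strand).
Psmb5: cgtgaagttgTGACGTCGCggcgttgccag
Psmb6: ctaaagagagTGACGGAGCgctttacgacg
Psmd9: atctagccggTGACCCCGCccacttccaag
Psme4: cgctgcggctGCAGCGTCAccagaagagcc

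Genes that work with the proteasome were read beside the members. Of 26 listed partners (shuttle factors, deubiquitinases, chaperones and regulators), 21 were tested. None passed the test of parental alleles or of crosses (edgeR), and 16 passed as equivalent. Toward B6 there were 2, Vcp, the segregase that pulls ubiquitinated proteins out of complexes, with 89.1% ± 4.89 (SD, n = 8) B6 (2.73 log2, standard error 0.27, adjusted p = 1.19e-07, edgeR), and Zfand5, a proteasome activator, at 1.01 log2. Toward cast there was 1, the shuttle factor gene Ubqln4, at -0.77 log2. The sum of the partners was 3453 RPM in reverse embryo 1 and 2871 to 3664 in the others, but single partners went both ways. Faf1 had 633 RPM in reverse embryo 1 against 184 to 265, Ube3c 336 against 68.7 to 126, and AI314180 320 against 40.0 to 90.1. Pomp, the partner with the most reads, had 428 against 615 to 738, and Ufd1l 165 against 247 to 396. The sum thus does not show that the partners kept their level in that embryo. The transcription factor gene Nfe2l1 had 9.30 RPM there against 10.01 to 40.8, and Nfe2l2 had 50.5 against 17.4 to 59.4.

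Of 10 listed genes of MHC class I antigen processing, 5 were tested. None passed the test of parental alleles (edgeR) and 1, B2m, passed as equivalent. B2m, the invariant chain of MHC class I, was also read more from cast, with 28.3% ± 11.6 (SD, n = 8) B6 (-1.58 log2, standard error 0.48, adjusted p = 0.0331, edgeR).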

How the data were processed

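RNA of 8 single blastocysts (embryonic day 3.5) was analysed, 3 of the forward and 5 of the reverse cross. The deposited counts give, for every gene and embryo, the SNP-spanning reads of each strain. The authors made them by alignment to mm10 with STAR (2.5.2b in the submitters' processing notes), exclusion of reads mapping to several places, and an intermediate step of Allelome.Pro, with no normalization. According to the methods, the authors left out samples 4 and 6 for low mapping or too few reads. Strand use in counting was not given in the sources used here. The reads carry no molecular identifiers, so limits for counts of 0 cover counting error only.

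Gene positions came from GENCODE M21 by symbol (18286 genes), then RefSeq (2999) or a synonym (411), and 1114 genes without a match were left out. Counts were tested with edgeR 4.0.16 (R 4.3.3, limma 3.58.1), TMM factors, the quasi-likelihood test with package defaults and Benjamini-Hochberg adjustment over 12564 autosomal genes with at least 10 reads in at least 1 of 16 allele libraries. The allele model had the terms strain and parent, and the test between crosses used both alleles summed. The study itself used DESeq2, which was an alternative here (1.42.0). RPM values were computed here from the counts and refer to all SNP-spanning reads of an embryo. Pseudogene copies were found with BLAST+ 2.17.0. In simulated data, the parental test on 11483 genes with 200 changed found 88.5% of them, and 6.35% of its calls were unchanged genes. The strain test found 89.5% and the cross test, on 10987 genes, 83.0%, with 6.28% and 11.7% of their calls being unchanged genes. The changed genes all had at least 200 reads and large changes (median fitted log2 difference of 1.95 in the parental test). For the parental and strain tests the alleles of an embryo were drawn independently. These rates therefore do not cover members with fewer reads, smaller differences or correlated alleles.

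The alleles of 1 embryo come from the same animal and are pairs. Their deviations correlated at 0.144, 0.0740 and 0.247 in forward embryos 1, 2 and 3 and at 0.606, 0.267, 0.574, 0.223 and 0.200 in reverse embryos 1, 2, 3, 5 and 7.

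Named were members called in a test, the 5 with the largest differences per test, the most-read of each class, the catalytic, inducible, tissue-restricted, activator and inhibitor genes, and called genes of the partner and antigen lists. Other genes named were chosen after their values were seen. Among them were the members furthest from the others in reverse embryo 1, partners named for their level there, Nfe2l1, Nfe2l2 and marker genes. The members and lists were chosen with earlier results of these data known. Alternatives were other scalings, filters, thresholds and models, a narrower margin (1.5-fold), and fits that left out single embryos, and the pseudogene split was added after seeing the data.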

Additional observations from a re-analysis of the deposited data

Results flagged for a closer look

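Dixon's test for 1 far value was applied to 57 sets of values of the 5 reverse embryos and marked 7, all of them at reverse embryo 1. Chance marks about 1 in 20 such sets. RPM stood apart at Psma3 (144), Psma8 (13.3), Psmb7 (111) and Psme4 (327), each above the other reverse embryos. Psma8 passed the read minimum only through this embryo, so its mark was fixed by the filter and tests nothing. The paternal share, here that of B6, stood apart at Psma4 (86.9%), Psma5 (47.4%) and Psmb3 (89.4%), each below the other reverse embryos. The whole library of this embryo stands apart from the others.

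The parental difference turned with the cross for the 7 members with a strain difference, which is the strain term itself (edgeR). The log2 values were 0.91 for Psma3, 4.99 for Psma4, 2.45 for Psma5, 4.97 for Psma8, 5.17 for Psmb3, 3.61 for Psmd2 and -0.91 for Psmg4.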

How the results depend on the processing

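The number of members that differed between parental alleles was 0, or 1 (Psmb9) with DESeq2, with legacy = FALSE, without a filter and with a term for each embryo as replicate block. Psmb9 stayed paternal in all alternatives, from 1.59 to 2.70 log2. The number with a strain difference was 7, 16 with the replicate block for each embryo, and 6 to 8 when embryos were left out in turn. Of the 7 calls, 2 were at members without a near-identical copy, which was counted without a new fit. The block kept all 7 calls. The number equivalent was 31, 19 at an adjusted p of 0.05, 0 with a margin of 1.5-fold, 36 with the replicate block and 9 to 34 when embryos were left out. For these equivalence alternatives the share of all tested genes was not set beside the numbers. No member passed the test of crosses in any alternative, including a replicate block of equal embryo numbers, whose deviations correlated at 0.293, 0.0260 and 0.295 and which share only a number. The difference of Psme4 between crosses reversed to -0.015 log2 without reverse embryo 1 and ranged up to 0.95 when others were left out. Scaled by TMM, the median paternal share was 51.6% (forward) and 48.6% (reverse). The cause of these changes was not tested, except that fewer embryos were fitted where one was left out. Members with few reads limit what could be shown.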
